A study of Mus musculus with 2 samples.

Results

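The inflammatory cytokine genes examined here are Il1a, Il1b, Il6, Tnf, Osm, Lif, Il18, Il10 and Tgfb1, together with Il1rn, which encodes the interleukin-1 receptor antagonist. Their probe sets were taken by gene symbol, and a probe set was kept only when it was annotated to exactly 1 of the 10 genes. All 10 genes were found, with 14 probe sets of the 34958 on the array that carried 1 symbol. Il1rn had 3 probe sets, Tgfb1 and Lif had 2 each, and the other 7 genes had 1 each.

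The study measured thioglycolate-elicited peritoneal macrophages of male C57BL6 mice aged 8 weeks on Affymetrix Mouse Genome 430 2.0 arrays. Thioglycolate medium is an irritant that draws inflammatory cells into the peritoneal cavity, so macrophages of both groups had been elicited in this way. The cells were cultured to 80% confluence in medium with serum and then kept for 12 h either without addition (control) or with CSF1 at 100 ng/ml. CSF1 (macrophage colony-stimulating factor) is the growth factor that macrophages need to survive and multiply, and the comparison asks how transcript signals differed after this exposure. There was 1 array per group, so differences have no replicate check, no test or error between cultures can be given, and precision is limited by the number of arrays. The labels do not say how many mice gave the cells, or whether both cultures came from the same mice.

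Macrophages release these cytokines as the early messengers of inflammation. Interleukin-1 alpha and beta act through the same receptor, and the antagonist Il1rn occupies that receptor without triggering it. Interleukin-6, oncostatin M and leukaemia inhibitory factor belong to a family that signals through the shared receptor chain Il6st and STAT3, whereas interleukin-10 and TGF-beta 1 are best known for restraining macrophage activation. Interleukin-1 beta and interleukin-18 are made as precursors that caspase-1 cuts.

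The upstream sequences of the ligand genes with ratios of opposite sign are shown first, Il1a and Il1b from the lower side and Il6 and Tnf from the higher side, as RefSeq gives them for GRCm38.p6. Each runs 5′ to 3′ over the 250 bases before the annotated start, and capitals mark a TATA box, a kB-like motif or an AP-1 motif.
Il1a promoter (chr2:129309973-129310222, minus strand): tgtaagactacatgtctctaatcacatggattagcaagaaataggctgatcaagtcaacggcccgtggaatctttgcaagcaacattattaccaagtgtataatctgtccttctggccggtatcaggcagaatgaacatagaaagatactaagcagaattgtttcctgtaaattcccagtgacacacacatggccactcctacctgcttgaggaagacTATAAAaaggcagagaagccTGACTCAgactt
Il1b promoter (chr2:129371140-129371389, minus strand): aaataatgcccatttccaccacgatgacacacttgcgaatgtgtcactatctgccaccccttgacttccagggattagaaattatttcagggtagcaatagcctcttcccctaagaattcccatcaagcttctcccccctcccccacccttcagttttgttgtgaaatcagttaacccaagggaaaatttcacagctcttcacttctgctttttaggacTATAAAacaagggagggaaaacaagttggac
Il6 promoter (chr5:30012864-30013113, plus strand): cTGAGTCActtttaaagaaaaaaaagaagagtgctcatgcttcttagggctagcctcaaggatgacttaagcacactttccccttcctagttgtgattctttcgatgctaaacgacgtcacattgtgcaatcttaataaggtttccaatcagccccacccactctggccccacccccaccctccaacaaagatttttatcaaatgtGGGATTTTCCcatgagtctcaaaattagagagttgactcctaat
Tnf promoter (chr17:35202008-35202257, minus strand): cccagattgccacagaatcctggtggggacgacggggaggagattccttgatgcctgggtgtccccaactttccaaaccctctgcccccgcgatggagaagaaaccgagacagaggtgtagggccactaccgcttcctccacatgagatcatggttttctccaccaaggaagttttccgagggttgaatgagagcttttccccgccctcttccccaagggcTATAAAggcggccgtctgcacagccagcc

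The motifs were searched on both strands in these 250 bases, and 8 of the 10 genes had an entry in the RefSeq promoter table, with 10 promoters because Il1rn has several starts. Osm and Il10 were not matched. The TATA box, TATAAA, lay 31 to 26 bases before the start in Il1b, 32 to 27 bases before it in Il1a and 29 to 24 bases before it in Tnf. A further match, in Il18, lay 175 to 170 bases before the start on the other strand. Among all 32851 promoters of the table, 12.4% held these letters. The kB-like motif, a shortened NF-kB site, was found in Il6 as GGGATTTTCC at 44 to 35 bases before the start and upstream of 1 start of Il1rn as GGGTTTTTCC at 51 to 42 bases, against 1.41% of all promoters. The AP-1 motif, TGAGTCA, was found in Il6, Il1a, Il1rn and Lif, against 4.46% of all promoters. The classic immunoglobulin kappa kB site, which also falls under the kB-like motif, the palindrome TTGCGCAA of C/EBP factors, the STAT-like letters TTCNNNGAA and the ISRE-like motif were not in any of the 10 windows. Among the promoters shown, the TATA box was thus found on both sides, in Il1a, Il1b and Tnf but not in Il6. The AP-1 letters were also on both sides, in Il1a and Il6 but not in Il1b or Tnf. These matches are descriptions of sequence, and binding was not measured.

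Of the 14 probe sets, 10 lay above the background level on both arrays, 1 on the control array alone and 3 on neither. The background level was 158 units of the deposited signal, below which 90% of probe set signals lay for genes that other tissues express. Over all probe sets with 1 symbol, 42.4% were above it on both arrays and 50.3% on neither. The 10 probe sets above background belonged to 8 genes, Il1a, Il1b, Il1rn, Il6, Tnf, Osm, Il18 and Tgfb1. Il10 and both probe sets of Lif gave no usable fold. Signals of different probe sets depend on their probes and are not compared between genes.

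**Figure D1:**
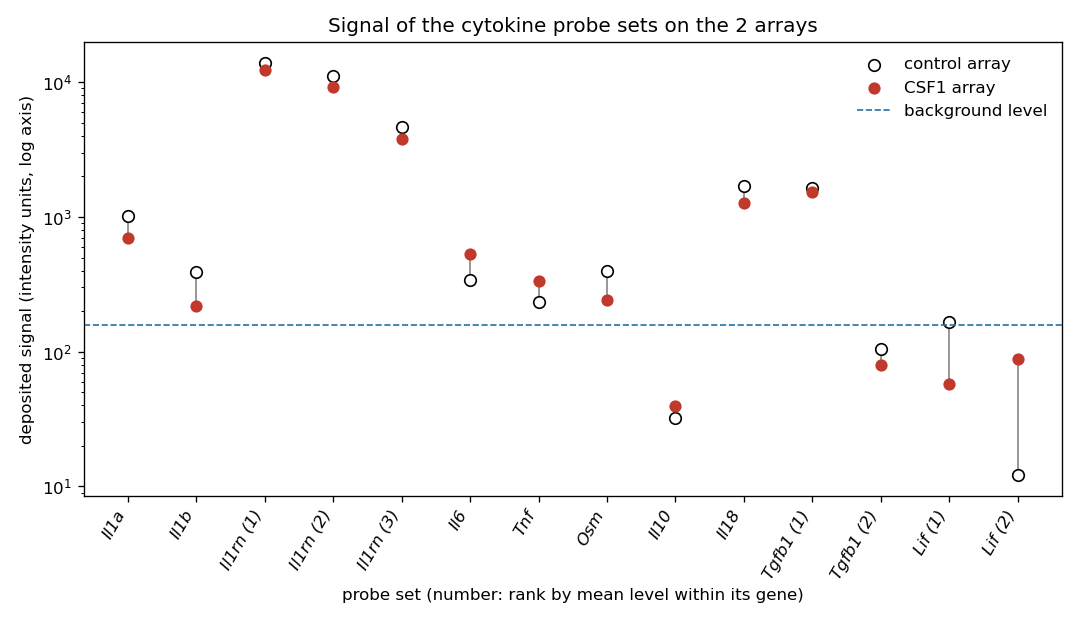
Deposited signal in intensity units (log axis) of the 14 cytokine probe sets on the control array (open circles) and the CSF1 array (filled circles), 1 array each, with the background level of 158 units dashed. Il6 and Tnf are higher on the CSF1 array, Il1a, Il1b, Osm, Il18, Il1rn and the first Tgfb1 probe set are lower, and Il10, the second Tgfb1 probe set and the second Lif probe set lie under the line on both arrays.

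As deposited, 8 of the 10 probe sets had a log2 ratio of CSF1 over control below 0 and 2 were above 0. Of all probe sets above background on both arrays, 50.6% were below 0. After centring on the hybridisation spikes the split was 5 and 5, but the median of all measured probe sets was then 0.26. Relative to that median the split was 8 and 2 again. The median of the 10 as deposited was -0.30, or 1.23-fold lower. That of all probe sets above background on both arrays was -0.0042. No member was past 2-fold. This threshold was passed by 0 of the 11 probe sets above background on at least 1 array, where 0.806% of all such probe sets were 2-fold higher or more and 0.772% were lower by this margin. At 1.5-fold, Il6 was higher and Il1b and Osm were lower. These are 1 and 2 of the 10 members above background on both arrays, where 4.83% of all probe sets were higher by 1.5-fold or more and 4.97% were lower by as much.

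The spikes, control transcripts added for the hybridisation step, averaged a log2 ratio of -0.29 ± 0.13 (SD between 18 spike probe sets). Centring on them moved the median of all measured probe sets to 0.26. Counts above and below 0 after this centring include that general shift, and the matching share of all probe sets is not given here. The shift changed the sign of 2 Il1rn probe sets and of Tgfb1. It left Il1b, Osm, Il1a and Il18 below 0 and Il6 and Tnf above 0.

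The interleukin-1 ligands were both lower on the CSF1 array, Il1b more so than Il1a. Il1b (chromosome 2, 129364569 to 129371164), the secreted fever-inducing form of interleukin-1, had a signal of 389 units in control cells and 219 units after CSF1. This is 1.77-fold lower, a log2 ratio of -0.83, the lowest of the cytokine probe sets above background on both arrays. The CSF1 signal lay just above a stricter background level of 213 units. Of the 1000 probe sets nearest to Il1b in mean level, 45 had a ratio at least as low. Such counts describe how widely ratios spread at that level on these 2 arrays and are not a test. The name of the Il1b probe set ends in _a_at, which marks probes shared by transcripts of the same gene.

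Il1a (chromosome 2, 129299609 to 129310186) encodes interleukin-1 alpha, which largely stays with the cell and acts on release or at its surface. Its signal was 1022 units in control cells and 701 units after CSF1, 1.46-fold lower (log2 ratio -0.54). Of the 1000 probe sets nearest in mean level, 35 were at least as low. Ratios spread less at this level, with an SD of 0.34 over those probe sets and of 0.47 over the ones nearest to Il1b.

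The antagonist gene Il1rn (chromosome 2, 24336860 to 24351491) had high signals on both arrays and ratios that were small in size, at levels where ratios spread little. Its brightest probe set stood at 13891 units in control cells and 12300.3 units after CSF1, a log2 ratio of -0.18. The second stood at 11211 and 9171 units (-0.29) and the third at 4650.1 and 3772 units (-0.30). The mean over the 3 probe sets was -0.26 ± 0.07 (SD between probe sets of the same pair of arrays). After centring on the spikes the same probe sets were at 0.12, 0.0048 and -0.0073, where the median of all measured probe sets was 0.26.

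Differences between the ratios of 2 genes do not depend on a constant scaling of an array. The log2 ratio of Il1b was 0.65 lower than that of the brightest Il1rn probe set, so the signal of the ligand relative to the antagonist was 1.57-fold lower on the CSF1 array. For Il1a the same comparison gave 1.29-fold. The pooled SD between probe sets of a gene, over 3615 genes with several probe sets above background, was 0.28 on the log2 scale. The Il1b difference is larger than that spread, which covers probes and not cultures. That SD is pooled over all signal levels and describes single ratios, whereas the difference joins 2 ratios. Among probe sets nearest in mean level, ratios had an SD of 0.47 for Il1b and 0.20 for the brightest Il1rn probe set. The Il1b difference is therefore not clearly beyond the spread at these levels.

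Il6 and Tnf were the members with higher signal on the CSF1 array. Il6 (chromosome 5, 30013114 to 30019975), which encodes the fever and acute-phase cytokine interleukin-6, stood at 341 units in control cells and 535 units after CSF1. It was 1.57-fold higher (log2 ratio 0.65), and 65 of the 1000 probe sets nearest in mean level were at least as high. Tnf (chromosome 17, 35199367 to 35202007), which encodes tumour necrosis factor, stood at 235 and 333 units, 1.42-fold higher (log2 ratio 0.51). For Tnf, 125 of the 1000 nearest probe sets were at least as high. The ratio of Tnf therefore lay well inside the spread of probe sets at its level.

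Il6 and Il1b moved apart by 1.48 on the log2 scale, a 2.78-fold change in the signal of Il6 relative to Il1b. Tnf and Il1b moved apart by 1.33, or 2.52-fold, while Il6 and Tnf differed from each other by 0.14. Each of these genes has 1 probe set, so none has a second measurement on the arrays.

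**Figure D2:**
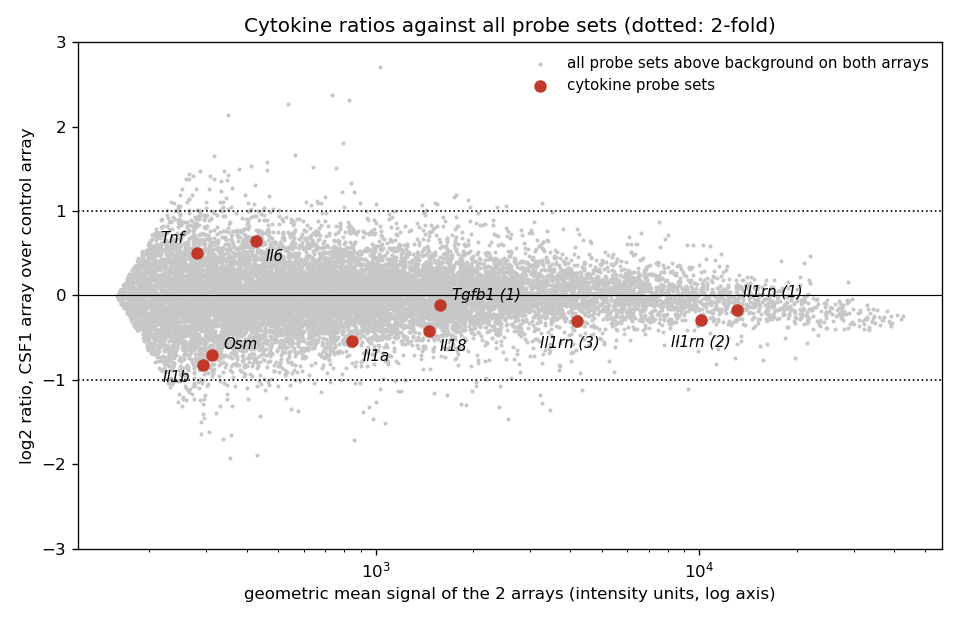
Log2 ratio of CSF1 over control against the geometric mean signal (log axis) for all 14830 probe sets with 1 symbol above background on both arrays (grey) and the 10 cytokine probe sets among them (red). The members lie between -0.83 and 0.65, inside the dotted 2-fold lines, with Il1b and Osm in the lower part of the cloud at low signal and Il1rn in its narrow part at high signal.

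Of the interleukin-6 family, Osm was measured on both arrays. Osm (chromosome 11, 4236785 to 4241026), which encodes oncostatin M, had 398 units in control cells and 243 units after CSF1, 1.64-fold lower (log2 ratio -0.71). Of the 1000 probe sets nearest in mean level, 70 were at least as low. Osm and Il6 signal through the same chain Il6st but had ratios of opposite sign, 1.36 apart on the log2 scale.

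Lif (chromosome 11, 4257568 to 4272514), the leukaemia inhibitory factor gene next to Osm, was at or near background. Its first probe set had 166 units on the control array, just above the background level, and 57.4 units on the CSF1 array. Its second probe set had 12.1 and 89.01 units, both under background. The probe sets pointed in opposite directions below the level, and with a stricter background level of 213 units, the 95th percentile, the first was also at background on both arrays. The lower bound from the first probe set, 1.05-fold lower, says nothing about a change of Lif.

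Il18 (chromosome 9, 50554700 to 50581841), which encodes a precursor cytokine that promotes interferon-gamma production, had 1700.4 units in control cells and 1265 units after CSF1. It was 1.34-fold lower (log2 ratio -0.43), with 62 of the 1000 nearest probe sets at least as low. Tgfb1 (chromosome 7, 25687002 to 25705077) had 1647 and 1527 units on its brighter probe set, 1.08-fold lower (log2 ratio -0.11). That is within the spread between probe sets of a gene, and its sign changed with centring on the spikes (0.19). The other Tgfb1 probe set, at 105 and 80.03 units, was under background on both arrays.

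Il10 (chromosome 1, 131019845 to 131024970) was under background on both arrays, at 32.4 units in control cells and 39.3 units after CSF1. The median signal of background probe sets was 51.1 units. Il10 transcript was thus not detectable in either culture on this probe set, and a change below that level could not be seen.

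**Figure D3:**
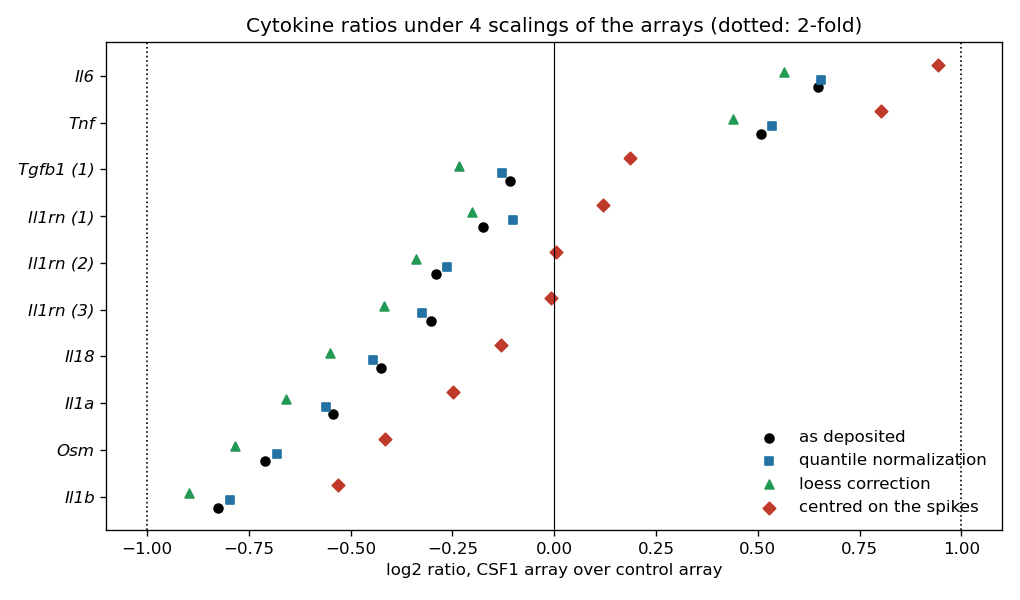
Log2 ratio of CSF1 over control for the 10 cytokine probe sets above background on both arrays, as deposited (circles), after quantile normalization (squares) or a loess correction (triangles), both relative to the median of all measured probe sets, and centred on the hybridisation spikes (diamonds). Il1b, Osm, Il1a and Il18 stay below 0 and Il6 and Tnf above 0 in all 4, while Tgfb1 and 2 Il1rn probe sets cross 0 with the spikes.

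Most receptor genes of these cytokines had ratios within 1.5-fold, with Tgfbr3 higher and Il10ra lower by more than that. Genes outside the cytokine set are each represented by their brightest probe set on average. Of 17 receptor and decoy genes, 12 were above background on both arrays, with 9 below 0 and 3 above 0 as deposited. After centring on the spikes all 12 were above 0. Relative to the median of all measured probe sets at that scaling, 9 were below 0 again. Over all 9254 genes above background on both arrays, 49% were below 0 as deposited. Among the 9254 genes, 4.78% were higher by 1.5-fold or more and 4.26% lower by as much. The interleukin-1 receptor genes Il1r1 and Il1rap had log2 ratios of -0.25 and -0.21, and the decoy receptor Il1r2 was under background on both arrays. The shared chain Il6st was at -0.23 (other probe sets at -0.59 and -0.22), Osmr at 0.35 (another probe set at -0.07), Lifr at -0.27, and Il6ra was above background on the control array alone. The tumour necrosis factor receptors Tnfrsf1a and Tnfrsf1b were at 0.37 and -0.10. The TGF-beta receptors Tgfbr1 and Tgfbr2 were at -0.18 and -0.16, whereas the co-receptor Tgfbr3 went from 575 to 1044 units, 1.82-fold higher, the sole receptor gene past 1.5-fold among those above background on both arrays.

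For interleukin-10 the second receptor chain Il10rb was at 11231 and 10753 units (-0.06). The ligand-binding chain Il10ra went from 296 units to below background on the CSF1 array, at least 1.87-fold lower. The interleukin-18 receptor gene Il18r1 was under background on both arrays and Il18rap was at the background level, while Il18bp, the secreted protein that neutralises interleukin-18, was at -0.07.

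Genes of cytokine processing had ratios of both signs as deposited. Of 16 fixed, 14 were on the array and 11 were above background on both arrays. As deposited, 7 of the 11 were above 0 and 4 below, with a median of 0.09. After centring on the spikes all 11 were above 0, with a median of 0.38. Relative to the median of all measured probe sets at that scaling, 8 were above 0. Casp1, the protease that matures interleukin-1 beta and interleukin-18, was at 0.19, the adaptor Pycard at 0.09, the sensor Nlrp3 at 0.35 and the pore-forming Gsdmd at 0.21. P2rx7, the ATP-gated channel that triggers interleukin-1 release, was at -0.20, and the sensor Aim2 was above background on the control array alone. Of these, Nlrp3 had a ratio beyond the 0.28 spread between probe sets of a gene, but its signals were low, at 253 and 323 units. Among the probe sets nearest in mean level to Tnf, which had similar signals, ratios had an SD of 0.48. The Nlrp3 ratio lay inside that wider spread. Adam17, which sheds tumour necrosis factor, was at -0.11. The proprotein convertase Furin, which cuts the TGF-beta 1 precursor, went from 375 to 673 units, 1.79-fold higher. The neutrophil protease gene Prtn3 went from 390.5 units to below background, at least 2.47-fold lower, where 0.607% of genes measured on at least 1 array were at least 2-fold lower and 0.778% at least 2-fold higher.

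Of the genes that store or activate TGF-beta, 7 of 11 on the array were above background on both arrays, with a median of 0.0027. Thbs1, thrombospondin 1, an activator of latent TGF-beta, was 2.16-fold lower, from 13553 to 6276 units, with a log2 ratio of -1.12 on its other probe set. The ligand genes Tgfb2 and Tgfb3 were at 0.0027 and 0.55.

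Genes of cytokine mRNA stability had a median near 0, -0.07, and ratios of both signs. All 14 were on the array, 13 were above background on both arrays, and 9 of these were below 0 as deposited. After centring on the spikes 3 were below 0. Relative to the median of all measured probe sets at that scaling, 8 were below 0. The tristetraprolin family, whose proteins bind AU-rich elements and promote decay of cytokine mRNAs, was at -0.21 (Zfp36), -0.46 (Zfp36l1, with -0.68 on another probe set) and -0.23 (Zfp36l2). Khsrp was past 1.5-fold at 0.59, with other probe sets at 0.38 and -0.61, and Hnrnpd, which also binds AU-rich elements, was at 0.56.

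Most other cytokine genes were not detectable. Of 28 on the array, 18 were under background on both arrays, including Il12a, Il12b, Il23a, Il4, Il13, Ifng, Ifnb1, Csf2 and Csf3. The other 10 were above it on at least 1 array, as were 10540 of all 18194 genes by their brightest probe set. The 8 other cytokine genes detected on both arrays stayed within 1.5-fold, with Ltb (lymphotoxin beta) at 0.54 and Il33 at 0.29. Ltb, Tnf and Lta lie side by side on chromosome 17. Ltb went from 240.4 to 349 units, and Lta was under background at 33.3 and 17.3 units. Among the probe sets nearest in mean level to Tnf, which had signals similar to Ltb, ratios had an SD of 0.48. The ratios of Ltb and Tnf are thus not clearly beyond the spread at their level. Other neighbours of Tnf within 50 kb were nearer 0, with Lst1 at -0.07, Aif1 at 0.14, Ddx39b at 0.10 and Prrc2a at 0.04. The neighbours of Osm, Castor1 and Tbc1d10a, were at 0.61 and 0.63, opposite in sign to Osm. Ckap2l, a neighbour of Il1a, was at 0.61, opposite in sign to Il1a. These neighbourhoods were looked at after the values were seen.

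Genes that respond to these cytokines were described by the same counts. Among response genes of the interleukin-6 family and interleukin-10, 10 of 11 above background on both arrays were below 0, with a median of -0.36. The count was 6 after centring on the spikes, and 8 relative to the median of all measured probe sets at that scaling. Those at least 1.5-fold lower as deposited were the transcription factor Nfil3 (-1.37), the feedback inhibitor Socs3 (-1.14), the kinase Pim1 (-0.99) and Cish (-0.59). The other Socs3 probe sets were at -1.04 and -1.27. Ratios of Il6 and Osm pointed in opposite directions beside these response genes. Stat3 itself was at -0.36, with -0.46 on another probe set.

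Response genes of interleukin-1 and tumour necrosis factor went both ways. Of 12 above background on both arrays, 8 were above 0 and 4 below, with a median of 0.09. The split was 5 above and 7 below after the loess correction, and 10 above and 2 below after centring on the spikes. Relative to the median of all measured probe sets at the spike scaling, it was 8 above and 4 below. The transcription factor Cebpd was 1.84-fold higher and the monocyte attractant Ccl2 1.503-fold higher. The apoptosis inhibitor Birc3 was 2.26-fold lower. Ptgs2, the inducible cyclooxygenase, went from 364 units to below background, at least 2.30-fold lower. The feedback genes Nfkbia and Tnfaip3 were at -0.34 and 0.08, and Nos2 was under background on both arrays.

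Adaptors and kinases downstream had a median of 0.0064 over 16 genes, and their brightest probe sets lay within 1.5-fold, although another probe set of Irak3 was at -0.92. After centring on the spikes the median was 0.30, with 13 of the 16 above 0. Relative to the median of all measured probe sets at that scaling, it was 0.04, with 9 above 0. Of 9 TGF-beta response genes above background on both arrays, 6 were below 0 as deposited, with a median of -0.28. After centring on the spikes 4 were below 0, and relative to the median of all measured probe sets at that scaling 6 were. Tgfbi was 1.78-fold lower (its other 3 probe sets between -1.15 and -0.72) and the SMAD corepressor Skil 1.56-fold lower (another probe set at -0.87).

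**Figure D4:**
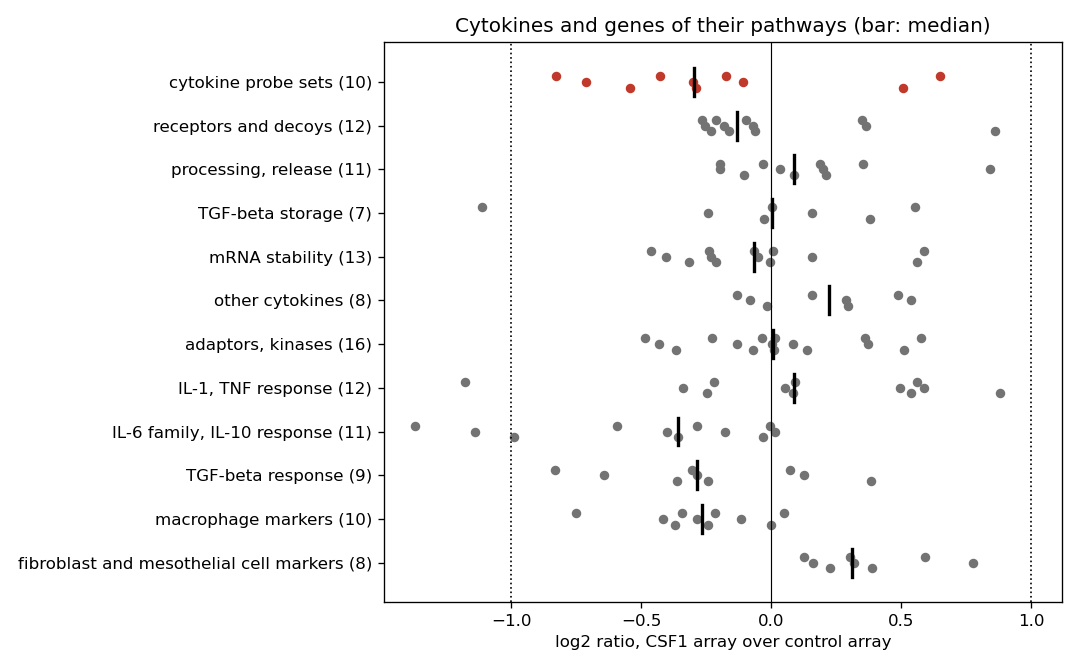
Log2 ratio of CSF1 over control for the 10 cytokine probe sets and for genes of related lists above background on both arrays (number in parentheses), 1 point per probe set or gene, with the median as a bar and 2-fold dotted. The medians of the cytokines (-0.30), the interleukin-6 and interleukin-10 response genes (-0.36), the TGF-beta response genes (-0.28) and the macrophage markers (-0.26) lie below 0, and that of fibroblast and mesothelial markers (0.31) above 0. The medians of receptors and decoys (-0.13) and mRNA stability genes (-0.07) are also below 0. The remaining plotted lists, among them other cytokines (0.22) and processing genes (0.09), have medians above 0.

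The labelled cell type was checked against its markers, and markers of other cells were read beside the cytokine values. All 10 macrophage markers were above background on both arrays, between 3483 and 38569 units on the control array and between 2072 and 29561 units on the CSF1 array. As deposited, their median ratio of -0.26 is close to the cytokine median of -0.30, and 9 were below 0. After centring on the spikes 4 were below 0, and relative to the median of all measured probe sets at that scaling 8 were. How close the macrophage marker and cytokine medians are depends on the scaling. After quantile normalization the macrophage marker median was -0.14 and the cytokine median -0.29. Of the 10 fibroblast and mesothelial markers, 8 were above background on both arrays and the brightest probe sets of all 8 were above 0, although other probe sets of Pdgfra and Col1a1 were at -0.58 and -0.25. Their median was 0.31, and the list's summed signal was 51603 units in control cells and 65401 units after CSF1. Cells other than macrophages can also make interleukin-6, and the part of these markers in the Il6 and Tnf ratios was not tested. Of 8 neutrophil markers, Csf3r (-1.04) and Mmp8 (-1.07) were lower and S100a8 (0.18) was not, while the other 5, S100a9 and Cxcr2 among them, were under background on both arrays; their summed signal was 9287 and 7836 units. Their part in the Il1b and Prtn3 ratios was not tested. Of 7 T and natural killer cell markers, 5 were above background on both arrays, with a median ratio of -0.04. The list's summed signal was 3068 units in control cells and 1971 units after CSF1, and most of that difference is Gzma (1554 and 472 units), while Cd3d, Cd3g, Cd2 and Nkg7 were at 0.35, -0.04, -0.04 and -0.14. The mast-cell markers Cpa3, Tpsb2 and Cma1 were at -0.20, -0.43 and -0.42, and the other 5 of that list were not above background on both arrays. Of the B-cell markers Ighm was 1.73-fold higher, with 0.55 and -0.05 on its other probe sets. Cd79b went the other way, above background on the control array alone and at least 1.37-fold lower. Pax5 was above background on the CSF1 array alone, and Ms4a1, Cd79a and Blk were under background on both arrays. Of the dendritic-cell markers Itgax was at -0.22, and Zbtb46 was above background on the control array alone, at least 2.01-fold lower. No eosinophil marker was above background on both arrays. The part of these markers in the cytokine ratios was not tested. In a bulk culture, fewer cells of a type and less RNA per cell cannot be told apart. The ratio of 3′ to 5′ signal, a sign of RNA integrity, was 1.35 and 1.38 for the actin control probe sets on the control and CSF1 arrays, and 1.03 and 1.40 for those of Gapdh.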

How the data were processed

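The deposited values are probe set intensities on a linear scale, made by the authors with GeneSpring 6.2 per the labels' series text. Both arrays had a 2% trimmed mean of 500.003 units. How probes were summarized is not stated in these sources, and detection calls were not used here. Of 45101 probe sets, 34958 had 1 gene symbol, 932 several and 9211 none, by the platform annotation. Symbols were checked by Entrez ID against RefSeq genes of GRCm38.p6 (204 unmatched, 0 changed).

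Values were moved to log2 and the ratio of CSF1 over control was taken per probe set, without further scaling. The background level was the 90th percentile of 149 probe sets, for 84 of 91 listed genes that other tissues express. Probe sets of 6 of these genes, Npy the brightest, exceeded it on both arrays. Lower values were raised to it, and a fold against it is a lower bound. Named genes were all members, receptors, and up to 4 genes per list past 1.5-fold; other list genes are given as examples chosen after their values were seen. Members and lists were chosen with earlier results of these data known. The procedure was run on simulated arrays whose planted changes were larger than the member ratios and lay only in probe sets well above background. That run therefore says nothing about ratios as small as those of the members. Alternatives were other scalings, background levels, probe set choices and fold thresholds. Tables were handled with pandas 2.3.3 and numpy 2.4.6 under Python 3.11.15, the loess correction used statsmodels 0.14.6, and plots were drawn with matplotlib 3.10.9.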

Additional observations from a re-analysis of the deposited data

How the results depend on the processing

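The count of cytokine probe sets past 2-fold was 0 in each direction as deposited. It was 1 higher after the loess correction, where the second Lif probe set reached 1.06 on the log2 scale, and 1 higher (Lif, 2.91) and 1 lower (the first Lif probe set, -1.505) with no background level, which by construction left 0 probe sets under background on both arrays. With a 1.5-fold threshold the counts were 1 higher and 2 lower. Centring the arrays on the spikes, not relative to the median of all probe sets, moved the median ratio from -0.30 to -0.0013. This alternative was chosen after seeing the data. At that scaling the median of all measured probe sets was 0.26, and relative to it the member median was -0.26. Under the other alternatives that recompute it, the median lay within the spread between probe sets of its value as deposited. Over the alternatives that recompute single probe sets, 100 ratios were given, of which 16 moved by more than that spread and 3 changed sign, those of 2 Il1rn probe sets and Tgfb1. Il1b ranged from -0.90 to -0.53, Il1a from -0.66 to -0.25, Osm from -0.78 to -0.42, Il18 from -0.55 to -0.13, Il6 from 0.56 to 0.94 and Tnf from 0.44 to 0.80. No paired analysis was possible because each group has 1 array. Near background the signal limits what can be seen: Lif, Il10 and the second Tgfb1 probe set cannot show a change. Il1b and Osm on the CSF1 array, at 219 and 243 units, and Tnf on the control array, at 235 units, were not far above the stricter level of 213 units.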
